A study of Mus musculus with 3 samples.

Results

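The 10 genes described here are 9 receptor genes of the tumour necrosis factor (TNF) receptor superfamily and the gene for RANK ligand. They were chosen by gene symbol, with earlier results of these data known, and all 10 were found among the 17121 genes of the deposited table. RNA came from CD8+ T cells, the cytotoxic lymphocytes, of wild-type mouse spleen and lymph node, studied on day 3 of culture, with 1 sample in each of 3 groups. Young TCR cells came from mice aged 6 weeks and had antibodies to CD3 and CD28 at 1 µg/ml, which stimulate the T cell receptor (TCR) and a costimulatory receptor. Young TRM cells, from mice of the same age, had these antibodies together with TGF-beta (5 ng/ml) and IL-15 (20 ng/ml), a mixture named after tissue-resident memory T cells (TRM). Aged TRM cells had the TRM mixture and came from mice aged 18 months. All 3 groups were thus stimulated through CD3 and CD28, and an unstimulated group and aged cells without the cytokines were not analysed here. Strain, sex and pooling of animals were not given in the sources used here.

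Receptors of this superfamily bind trimeric ligands and have no enzyme activity of their own. Most of those on T cells recruit TRAF adaptors and activate NF-kappaB, which supports survival and effector function after antigen contact. By contrast, Fas and the TRAIL receptor encoded by Tnfrsf10b carry a death domain and can start caspase activation. CD137, GITR, OX40 and CD30 are induced by T cell activation, CD27 is already present on naive T cells, and RANK is best known from osteoclast precursors and dendritic cells, which receive RANK ligand from osteoblast-lineage cells and from activated T cells.

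Levels are given as CPM, the reads of a gene relative to the library total after scaling by the trimmed-mean (TMM) method, or as TPM, which also divides by transcript length and was used wherever genes are compared with each other. The libraries held between 36021887 and 40385477 reads, so that 1 read was worth between 0.0246 and 0.0284 CPM. The table has 2 numbered columns for every sample, without a label that says what they are. They were taken as repeats of the same sample, and the median gene of at least 50 reads differed 1.05-fold between them. For 2, 2 and 3 of the 10 genes in young TCR, young TRM and aged TRM, the counting interval between the columns excluded 1. The share of all genes with such an interval is not given here, and a 95% interval can exclude 1 by counting error alone. With 1 sample per group no difference could be tested against variation between mice or cultures, no p-value was computed, and all intervals are 95% Clopper-Pearson intervals that cover counting error only. The words rose and fell are kept for genes where CPM with a pseudocount of 1 differed at least 2-fold (a log2 ratio of 1) and the interval of the read ratio excluded 1. Folds are given without the pseudocount. Cd8a, which encodes the CD8 alpha chain, had 747, 1822 and 1632 CPM in young TCR, young TRM and aged TRM. It thus rose itself in young TRM against young TCR, at a log2 ratio of 1.28. Each of the other 9 T cell identity genes measured had reads in every library.

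In young TRM against young TCR, 2 of the 10 genes rose and 1 fell, while 4.18% of the 11588 genes tested rose and 3.60% fell (7.78% in either direction). The genes were Tnfrsf11a and Tnfrsf1b, which rose, and Tnfrsf8, which fell. In aged TRM against young TRM, Tnfrsf8 rose and Tnfrsf11a fell, 1 of 10 genes in each direction, while 2.25% of 11575 genes tested rose and 1.15% fell (3.40% in either direction). All 10 genes reached the minimum of 1 CPM for testing in both comparisons. Their median log2 ratio was 0.03 in the first comparison and 0.32 in the second, where the medians of all genes tested were 0.02 and -0.01. Both comparisons contain the young TRM library, so that its own deviation would enter them with opposite sign. In bulk RNA, fewer cells that express a gene and less RNA per cell cannot be told apart. The 7 genes that passed no threshold in either direction in the first comparison, Tnfrsf9, Tnfrsf18, Tnfrsf4, Cd27, Fas, Tnfrsf10b and Tnfsf11, had log2 ratios from -0.56 to 0.55.

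**Figure D1:**
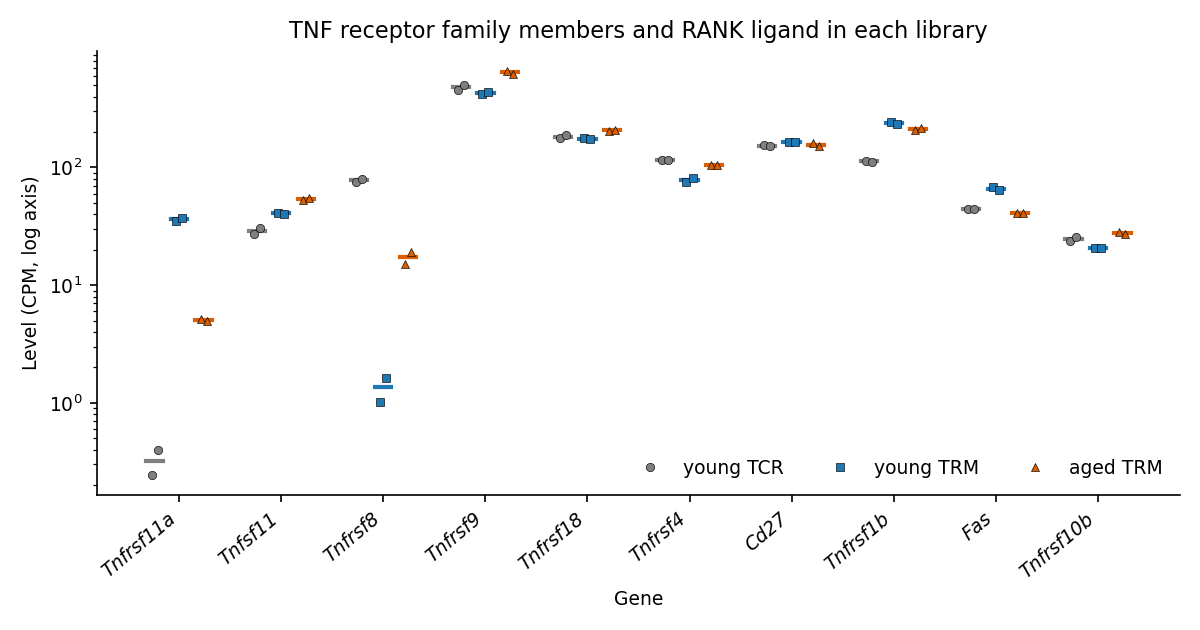
Level of each of the 10 genes in CPM on a log axis, with the bar at the value of the summed sample and the points at its 2 deposited columns. Tnfrsf11a and Tnfrsf8 span 0.321 to 36.5 CPM and 1.36 to 77.6 CPM over the 3 libraries, whereas none of the other 8 genes spans more than 2.11-fold.

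The promoters of the 3 genes that rose or fell are shown because these are the members whose transcripts passed the threshold. They are RefSeq sequences of build GRCm38.p6 before the start site of the promoter table, written 5′ to 3′ on the gene's own strand and limited to bases outside the annotated gene. Tnfrsf11a is given at chr1:105780473-105780672 (plus strand), Tnfrsf8 at chr4:145315165-145315414 (minus strand) and Tnfrsf1b at chr4:145246871-145247120 (minus strand). Capitals mark matches to any of 6 motifs described after the sequences.
Tnfrsf11a: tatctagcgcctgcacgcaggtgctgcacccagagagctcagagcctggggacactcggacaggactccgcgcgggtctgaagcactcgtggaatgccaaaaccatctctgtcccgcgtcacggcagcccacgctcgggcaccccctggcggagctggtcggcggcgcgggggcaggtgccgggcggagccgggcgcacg
Tnfrsf8: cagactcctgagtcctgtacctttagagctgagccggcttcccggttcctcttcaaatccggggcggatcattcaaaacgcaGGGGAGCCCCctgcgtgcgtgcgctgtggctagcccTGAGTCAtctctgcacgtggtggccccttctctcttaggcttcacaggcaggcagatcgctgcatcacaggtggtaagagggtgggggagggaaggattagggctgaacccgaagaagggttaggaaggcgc
Tnfrsf1b: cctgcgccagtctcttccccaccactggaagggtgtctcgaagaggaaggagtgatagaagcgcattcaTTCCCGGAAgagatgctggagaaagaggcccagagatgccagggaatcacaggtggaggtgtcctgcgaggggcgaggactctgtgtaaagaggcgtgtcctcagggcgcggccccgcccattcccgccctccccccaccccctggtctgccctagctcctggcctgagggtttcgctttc
Motifs were searched on both strands from 250 bases before to 50 bases after the start site, in 32851 promoters of all genes. In Tnfrsf8 the capitals are a match to the kappaB consensus, 168 bases before the start site, and an AP-1 element (TGANTCA) at 132 bases, which do not overlap. The kappaB consensus was found in 4.51% of all promoters and the AP-1 element in 7.81%. In Tnfrsf1b the capitals are a STAT element (TTCNNNGAA) 181 bases before the start site, a motif of 8.3% of all promoters. The other motifs, a SMAD element (CAGACA, 21.0% of all promoters), an ETS core (GGAAGT, 23.8%) and a RUNX element (TGTGGTT, 5.27%), had no match in these 3 windows, and none of the 6 motifs had a match in that of Tnfrsf11a. That says only that these letters are not in the window. Of the other members with an entry, Tnfrsf9 held kappaB, AP-1 and STAT matches in its internal promoter, where the 2 kappaB matches overlap by all but 1 base. Fas held AP-1 and STAT matches, Tnfrsf18 SMAD and STAT, Cd27 SMAD and Tnfrsf4 the ETS core. Tnfrsf10b had no entry. A match is a description of letters and not a binding site.

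Tnfrsf11a encodes RANK, the receptor through which RANK ligand drives osteoclast formation and dendritic cell survival. It had 0.321 CPM in young TCR (columns 0.246 and 0.396), 36.5 CPM in young TRM (35.4 and 37.3) and 5.09 CPM in aged TRM (5.18 and 5.01). The 3 libraries did not overlap by column, with young TRM highest and young TCR close to the limit of counting at 13 reads. Tnfrsf11a thus rose 114-fold with the added cytokines (interval 66.3 to 214) from 13 to 1285 reads, which placed its log2 ratio of 4.83 at rank 9 of the 11588 genes tested. In aged TRM it was 7.16-fold lower than in young TRM (6.18 to 8.34), at 207 reads and a log2 ratio of -2.62, rank 8 from the lowest of 11575 genes. Aged TRM lay above young TCR, at 15.9 times its CPM (9.08 to 30.3), where age and cytokines both differ. Per length, Tnfrsf11a had 0.12, 13.8 and 1.99 TPM.

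Tnfsf11 encodes RANK ligand, the membrane-bound cytokine of activated T cells that engages RANK on other cells. It had 29.0 CPM in young TCR (27.4 and 30.7), 40.8 CPM in young TRM (41.2 and 40.4) and 54.1 CPM in aged TRM (52.9 and 55.3). The columns of the libraries did not overlap, and young TCR was lowest and aged TRM highest. Neither step passed 2-fold, at 1.4-fold (1.3 to 1.52) for the cytokines and 1.33-fold (1.24 to 1.42) for age. Set against young TCR, aged TRM had 1.86 times the CPM (1.74 to 2.0). Ligand and receptor transcripts therefore stood in very unlike proportion: Tnfsf11 exceeded Tnfrsf11a 215-fold in TPM in young TCR, 2.61-fold in young TRM and 24.7-fold in aged TRM. The first of these ratios rests on 13 receptor reads and was 268 and 183 in the separate columns. Tnfrsf11b, which encodes osteoprotegerin, the soluble decoy receptor for RANK ligand, had 5, 1 and 99 reads. It rose in aged TRM against young TRM by a ratio of 85.8 (15.0 to 3423) to 2.44 CPM, and its columns in aged TRM were 1.32 and 2.18 TPM.

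Genes with RANK response in osteoclasts were examined from a list of 16. In young TRM against young TCR, 7 were tested, 1 rose (Src) and 2 fell (Itgb3 and Prdm1), with a median log2 ratio of 0.24 against 0.02 for all genes. Src, a tyrosine kinase needed for bone resorption, rose from 0.789 to 8.34 CPM (10.6-fold, 7.33 to 15.7). Itgb3, the integrin beta 3 chain, fell from 263 to 31.9 CPM, and Prdm1, which encodes the repressor Blimp-1, fell from 18.0 to 3.09 CPM. In aged TRM against young TRM, 9 were tested, none fell and 1 rose, Prdm1, to 7.45 CPM (2.41-fold, 1.93 to 3.03), which passed 2-fold in 2 of the 4 pairings of columns. Nfatc1, the master transcription factor of osteoclasts that T cells also express, had 183, 216 and 211 CPM. The osteoclast genes Ctsk, Oscar, Dcstamp, Ocstamp, Calcr and Mmp9 each had under 1 CPM in all libraries. Acp5 and Clcn7 of the same list had 86.2, 113 and 74.2 CPM and 21.2, 28.8 and 28.4 CPM, and passed no threshold.

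**Figure D2:**
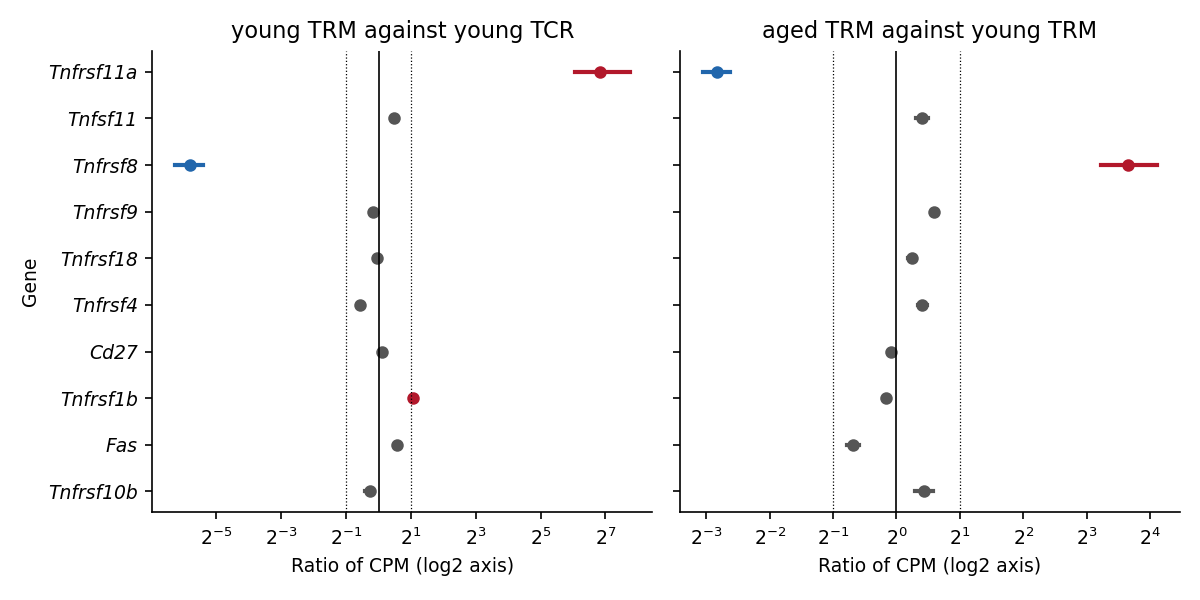
Ratio of CPM for each gene on a log2 axis, with 95% counting intervals as bars, red for genes that rose, blue for genes that fell and grey for genes that passed no threshold, and dotted lines at 2-fold. Tnfrsf11a and Tnfrsf8 lie far outside the dotted lines in both comparisons and on opposite sides, and Tnfrsf1b lies at 2.11-fold in the first.

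Tnfrsf8 encodes CD30, a costimulatory receptor of activated T and B cells best known as a marker of Hodgkin lymphoma. It had 77.6 CPM in young TCR (75.2 and 80.1), 1.36 CPM in young TRM (1.02 and 1.64) and 17.2 CPM in aged TRM (15.2 and 19.1). Young TCR was highest and young TRM lowest, and no columns of different libraries overlapped. Tnfrsf8 fell 57.0-fold with the cytokines (42.9 to 77.4), from 3147 to 48 reads. Its log2 ratio of -5.06 was the lowest but 1 of 11588 genes. In aged TRM it was 12.6-fold higher than in young TRM (9.4 to 17.3), with 698 reads and a log2 ratio of 2.94 at rank 9 of 11575 genes. It was then still 4.52-fold lower than in young TCR. Tnfsf8, which encodes the CD30 ligand, had 140, 131 and 106 CPM and passed no threshold. Ligand and receptor had 75.3 and 44.5 TPM in young TCR, 71.1 and 0.755 TPM in young TRM, and 59.2 and 10.1 TPM in aged TRM.

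Tnfrsf1b encodes TNFR2, the TNF receptor of lymphocytes that recruits TRAF2 and has no death domain. It had 113 CPM in young TCR (114 and 111), 238 CPM in young TRM (242 and 235) and 211 CPM in aged TRM (208 and 215). Both TRM libraries lay above young TCR in each column, and young TRM lay above aged TRM. Tnfrsf1b rose 2.11-fold with the cytokines (2.04 to 2.19), just past the 2-fold threshold, and did so in 4 of 4 pairings of columns. With age it passed no threshold, at 1.13-fold lower (1.09 to 1.16). Tnfrsf1a, the widely expressed TNF receptor with a death domain, had 20.3, 23.4 and 21.7 CPM. The ligand genes Tnf and Lta rose with the cytokines, Tnf from 15.0 to 44.7 CPM (2.98-fold, 2.71 to 3.28) and Lta, the lymphotoxin alpha gene, from 20.4 to 89.8 CPM (4.41-fold, 4.08 to 4.77). In aged TRM they had 27.4 and 83.0 CPM, which passed no threshold against young TRM.

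Tnfrsf1b and Tnfrsf8 lie next to each other on chromosome 4, at 145212368 to 145246870 and 145267132 to 145315164 of GRCm38.p6, 20.3 kb apart. They gave log2 ratios of 1.07 and -5.06 with the cytokines and of -0.17 and 2.94 with age. Of the 10 genes, 5 lie on chromosome 4, the others being Tnfrsf9 (150920155 to 150946104), Tnfrsf4 (156013595 to 156016613) and Tnfrsf18 (156026322 to 156028894). Tnfrsf4 and Tnfrsf18, 9.71 kb apart, gave log2 ratios of -0.56 and -0.05 with the cytokines and 0.41 and 0.23 with age. The annotation places the gene Sdf4 across part of Tnfrsf4, and how reads that fit both were counted was not given in the sources used here. Tnfrsf11a lies on chromosome 1 (105780673 to 105849444), Cd27 on chromosome 6 (125232620 to 125237136), Fas on chromosome 19 (34290647 to 34327775), and Tnfsf11 (78277446 to 78308043) and Tnfrsf10b (69767472 to 69784411) on chromosome 14.

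The costimulatory receptors CD137, GITR, OX40 and CD27 had the highest levels per length and passed no threshold in either comparison. Tnfrsf9, which encodes CD137, a receptor that sustains proliferation and survival of CD8+ T cells, had 479 CPM in young TCR (457 and 501), 428 CPM in young TRM (417 and 436) and 644 CPM in aged TRM (661 and 627). Aged TRM lay above both young libraries in every column, at 1.51-fold over young TRM (1.48 to 1.54). Tnfrsf18, which encodes GITR, had 182 CPM (178 and 187), 176 CPM (179 and 173) and 207 CPM (205 and 208). The young libraries overlapped by column and aged TRM lay above them, 1.18-fold over young TRM (1.14 to 1.22).

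Tnfrsf4, which encodes OX40, a receptor that prolongs T cell responses, had 116 CPM in young TCR in both columns, 78.5 CPM in young TRM (74.6 and 81.7) and 105 CPM in aged TRM (104 and 105). Young TRM was lowest, 1.48-fold below young TCR (1.41 to 1.55), and aged TRM was 1.33-fold above young TRM (1.27 to 1.4). Cd27, whose product is shed or lost as T cells differentiate into late effectors, had 153 CPM (155 and 152), 165 CPM (164 and 166) and 155 CPM (160 and 151). Its columns in aged TRM overlapped those in young TCR, and the 3 libraries lay within 1.08-fold of each other.

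Of the death receptors, Fas, which triggers apoptosis of activated T cells on contact with Fas ligand, had 44.6 CPM in young TCR (44.3 and 44.8), 65.7 CPM in young TRM (68.0 and 63.8) and 40.9 CPM in aged TRM (41.0 and 40.7). Young TRM stood above both other libraries, 1.47-fold over young TCR (1.38 to 1.57), and aged TRM was 1.61-fold lower than young TRM (1.51 to 1.71). Fasl, which encodes the ligand, had 36.0, 20.2 and 32.8 CPM, lowest where Fas was highest. Tnfrsf10b, the mouse TRAIL receptor with a death domain, had 24.7 CPM (23.7 and 25.8), 20.5 CPM (20.6 and 20.5) and 27.7 CPM (28.5 and 27.0), lowest in young TRM. Neither receptor passed 2-fold in either comparison. Tnfsf10, which encodes TRAIL, rose with the cytokines from 71.6 to 181 CPM (2.53-fold, 2.42 to 2.64) and had 164 CPM in aged TRM.

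With a threshold of 1.5-fold in place of 2-fold, no further gene of the 10 passed in young TRM against young TCR, where 9.41% of all genes tested were then higher and 9.10% lower. In aged TRM against young TRM, Tnfrsf9 joined Tnfrsf8 among the higher genes and Fas joined Tnfrsf11a among the lower. That made 2 of 10 in each direction, where 6.32% of all genes tested were higher and 3.84% lower.

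**Figure D3:**
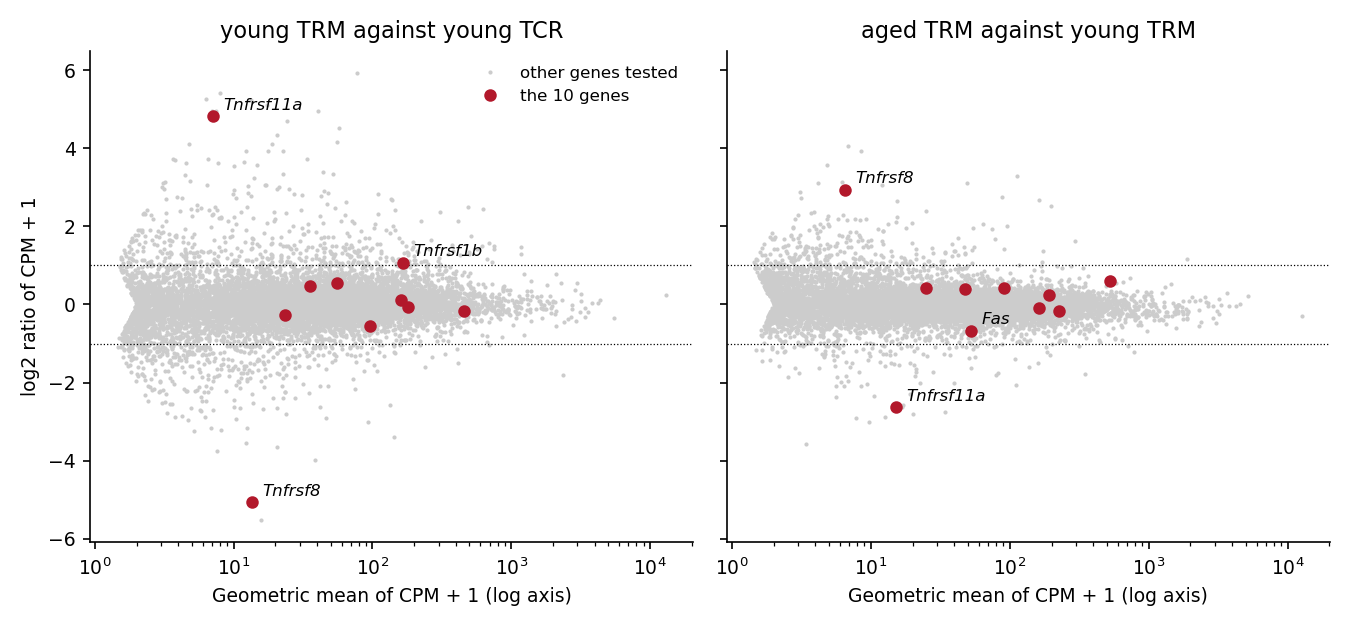
The log2 ratio of CPM + 1 against the geometric mean of CPM + 1 (log axis) for every gene tested (grey) and for the 10 genes (red) in each comparison, with dotted lines at 2-fold. Tnfrsf11a and Tnfrsf8 lie at the edge of the cloud in both panels, and the other 8 genes lie inside the dotted lines, except Tnfrsf1b at 1.07 in the first.

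The order of levels per length was stable at the top. Tnfrsf9 was first and Tnfrsf18 second in all 3 libraries, with 460, 404 and 635 TPM and with 361, 346 and 421 TPM, separated from their neighbours in both columns. Together they made 59.4% of the summed TPM of the 9 receptor genes in young TCR, 57.4% in young TRM and 65.1% in aged TRM. With Tnfrsf4 and Cd27 the share was 88.0%, 83.6% and 89.3%. Tnfrsf4 stood above Cd27 in young TCR (202 and 194 TPM), and Cd27 stood above Tnfrsf4 in young TRM (208 and 135 TPM) and aged TRM (205 and 187 TPM). Tnfrsf1b and Fas followed at 94.4 and 92.1 TPM in young TRM, where their columns overlapped, as did those of Tnfrsf1b and Tnfrsf8 in young TCR (45.0 and 44.5 TPM). The last place went to Tnfrsf11a in young TCR (0.12 TPM), Tnfrsf8 in young TRM (0.755 TPM) and Tnfrsf11a in aged TRM (1.99 TPM). The sum over the 9 receptors was 1382, 1306 and 1622 TPM, with columns of 1340 and 1424, 1309 and 1304, and 1646 and 1597. The genes with the largest ratios were therefore minor parts of the sum: Tnfrsf11a made 1.06% of it in young TRM and Tnfrsf8 made 3.22% in young TCR.

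**Figure D4:**
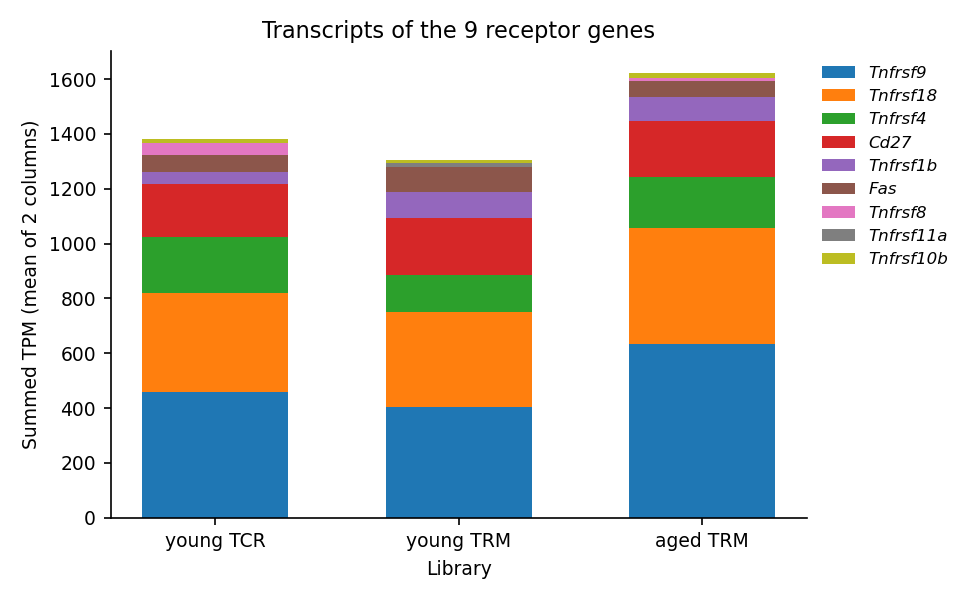
Summed TPM of the 9 receptor genes in each library (mean of the 2 columns, linear axis from 0), with 1 colour per gene. Tnfrsf9 and Tnfrsf18 make 59.4%, 57.4% and 65.1% of the sum in young TCR, young TRM and aged TRM.

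Ligand transcripts of the 9 receptors were measured in the same libraries, by pairs taken from textbook knowledge. For CD137, GITR and CD27 the receptor greatly exceeded the ligand. Tnfsf9 had 4.71, 5.67 and 5.82 TPM, and Tnfrsf9 was 97.5, 71.2 and 109 times as high. Cd70 had 1.86, 1.42 and 1.43 TPM, and Cd27 was 104, 147 and 144 times as high. Tnfsf18, the GITR ligand gene, had 0, 0 and 1 reads, where 3 reads would be 0.074, 0.0851 and 0.0738 CPM. For OX40 the ligand gene Tnfsf4 had 32.7, 50.4 and 88.1 TPM, and the ratio of receptor to ligand was 6.18, 2.67 and 2.13. For Fas that ratio was 1.63, 4.5 and 1.67, and for TNFR2 and Tnf it was 2.48, 1.76 and 2.54. The ligand gene Lta had 29.7, 129 and 124 TPM. Tnfrsf1b had 45.0, 94.4 and 86.6 TPM, above Lta in young TCR and below it in both TRM libraries. Tnfsf10 exceeded Tnfrsf10b in all 3 libraries, 1.85-fold, 5.61-fold and 3.79-fold.

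**Figure D5:**
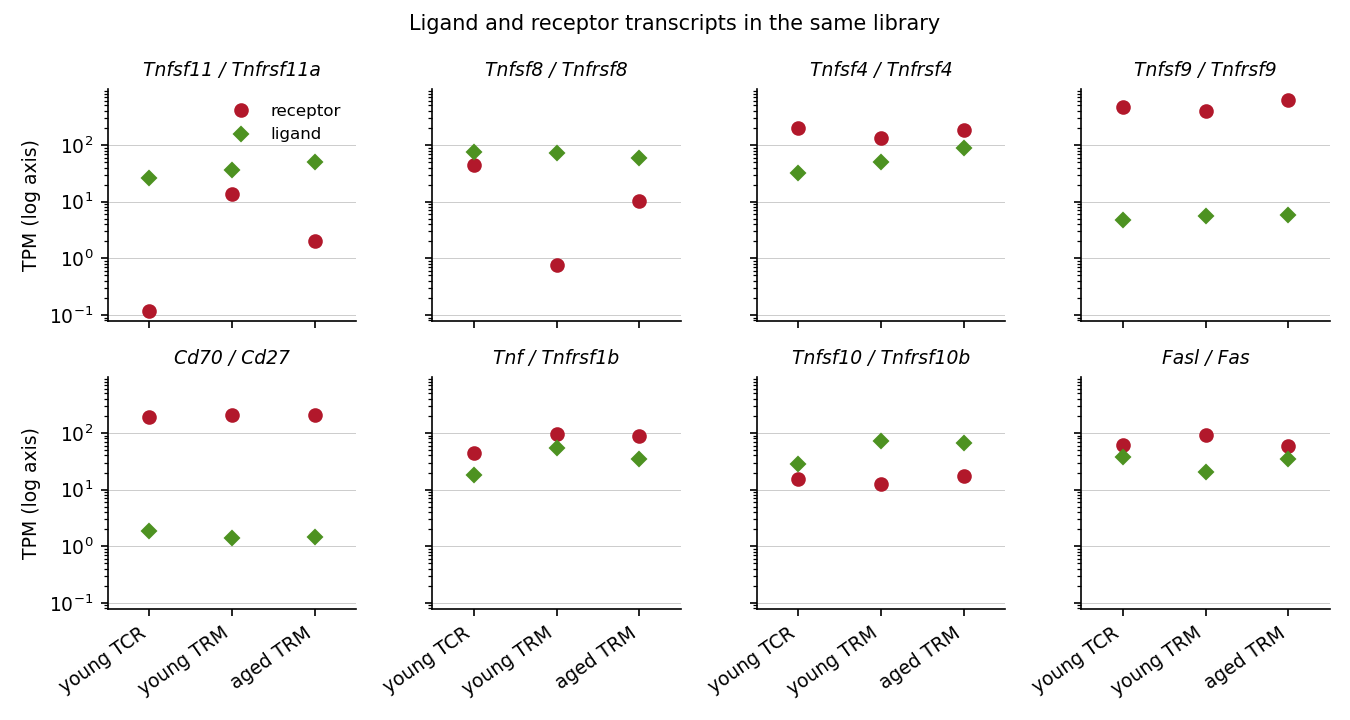
TPM on a log axis of the ligand (green) and the receptor (red) of 8 pairs in each library, leaving out Tnfsf18 and Tnfrsf18, since Tnfsf18 had at most 1 read. Tnfrsf11a moves between 0.12 and 13.8 TPM beside Tnfsf11 at 25.8 to 49.4 TPM, Tnfrsf8 between 0.755 and 44.5 TPM beside Tnfsf8 at 59.2 to 75.3 TPM, and Tnfrsf9 and Cd27 stand far above their ligands in every library.

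Among 20 other receptors of the superfamily, 17 were in the table and 11 were tested in young TRM against young TCR. Of these 1 rose and none fell, with a median log2 ratio of 0.21 against 0.02 for all genes. The riser was Tnfrsf25, the TL1A receptor DR3, from 2.22 to 7.10 CPM (3.2-fold, 2.5 to 4.11). In aged TRM against young TRM 14 were tested, 2 rose and 1 fell, with a median of -0.12. Tnfrsf25 fell to 2.93 CPM (2.42-fold lower, 1.94 to 3.04), past 2-fold in 2 of 4 pairings of columns, and thus had its highest level in young TRM, as Tnfrsf11a did. Besides Tnfrsf11b, Eda2r rose from 4 to 68 reads (14.7-fold, 5.5 to 55.6) to 1.67 CPM. Tnfrsf14, the herpesvirus entry mediator that binds LIGHT and BTLA, had 116, 176 and 145 CPM. Of 17 other ligands of the family, 9 were tested in each comparison. With the cytokines 3 rose (Lta, Tnf and Tnfsf10) and none fell, with a median of 0.58, and with age none passed the threshold, with a median of -0.11. Ltb, which encodes lymphotoxin beta, had 199, 298 and 175 CPM.

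Adaptors and regulators downstream of these receptors passed no threshold. Of 30 such genes, all tested, 0 rose and 0 fell in either comparison, with medians of 0.23 for the cytokines and -0.1 for age. The largest ratio was that of Traf6, the adaptor of RANK and CD40, with 80.6, 157 and 132 CPM and a log2 ratio of 0.95 for the cytokines, just short of the threshold. Traf1, an NF-kappaB-induced adaptor of CD137 and CD30, had 236, 143 and 196 CPM, with log2 ratios of -0.72 and 0.45. Of 11 NF-kappaB subunits and inhibitors 1 rose with the cytokines, Nfkbiz, from 27.3 to 70.4 CPM (2.58-fold, 2.4 to 2.77), and none passed the threshold with age, with medians of 0.18 and -0.03. Nfkb1 and Rela, which encode the subunits p50 and p65, had 582, 541 and 531 CPM and 99.2, 113 and 111 CPM. Of 16 NF-kappaB target genes 12 were tested for the cytokines, 1 rose and 3 fell, with a median of -0.39. Icam1, an adhesion molecule, rose from 64.9 to 132 CPM, just past 2-fold and in 3 of 4 pairings of columns. Cd83 fell from 52.0 to 13.7 CPM, Ier3 from 20.2 to 6.16 CPM and Marcksl1 from 38.9 to 14.0 CPM. For age 13 were tested and 1 rose, Ccnd1, from 1.96 to 7.13 CPM, with a median of 0.44.

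Some of the genes listed as markers of other cells differed between the libraries as well. The 12 B and plasma cell genes summed to 55.6 CPM in young TCR (columns 50.8 to 60.4), 18.6 CPM in young TRM (17.9 to 19.2) and 27.5 CPM in aged TRM (26.6 to 28.4), the same order as Tnfrsf8, and none was at 0. Of 9 tested with the cytokines 7 fell and of 7 tested with age 3 rose. Ms4a1, which encodes CD20, fell most with the cytokines and had 7.40, 0.426 and 1.89 CPM. Cd79b made the largest part of the sum in each library, with 15.5, 12.9 and 11.7 CPM. It passed no threshold. Its columns in young TRM (12.1 and 13.5) and aged TRM (12.3 and 11.1) overlapped, unlike those of Tnfrsf8. The 10 NK and innate lymphoid genes summed to 36.8, 101 and 136 CPM, lowest in young TCR, and mostly from Kit with 29.6, 78.4 and 110 CPM. Ncr1, the NK cell receptor NKp46, had 0.0493, 2.19 and 1.18 CPM. The 12 myeloid and dendritic genes summed to 68.0, 145 and 118 CPM, mostly from Ctss, in the same order of libraries as Tnfrsf11a. Of the NK list 5 of 9 tested rose with the cytokines and none passed the threshold with age, and of the myeloid list 2 of 6 rose, 1 fell and none passed with age. The 2 that rose were Ctss and Mpeg1, a perforin-like gene of macrophages, which had 4.22, 28.7 and 15.4 CPM, in the order of Tnfrsf11a. The 1 that fell was Itgax, with 8.63, 3.55 and 4.21 CPM. Cd68 (9.23, 5.25 and 4.45 CPM) was also highest in young TCR, unlike Tnfrsf11a. Itgam had 2.59, 2.24 and 0.664 CPM, and its columns in young TCR and young TRM overlapped. Csf1r, a defining macrophage gene, had between 8 and 9 reads in each library, and Adgre1, another, had 1, 0 and 2 reads, too few to compare. Foxp3, the factor of regulatory T cells, followed the order of Tnfrsf11a with 1.95, 33.6 and 3.71 CPM. So did Ikzf2, which encodes Helios, with 117, 315 and 168 CPM, Ikzf4, which encodes Eos, with 22.0, 127 and 90.5 CPM, and, over a narrow range, Cd4 with 10.5, 12.4 and 11.6 CPM. That list of 10 CD4 and regulatory T cell genes summed to 1425, 1894 and 2111 CPM, mostly from Il2ra, which activated CD8+ T cells express too. Il2ra had 868, 1117 and 1518 CPM, highest in aged TRM, and Ctla4 had 266, 234 and 255 CPM, lowest in young TRM. The 9 tested genes of that list gave 3 higher (Foxp3, Ikzf2 and Ikzf4) and 3 lower (Trat1, Gata3 and Zbtb7b) with the cytokines. With age they gave 1 lower, Foxp3. The 10 stromal and endothelial genes summed to 81.0, 73.9 and 58.1 CPM, of which Pecam1, which T cells also express, made 76.5, 70.7 and 53.5 CPM, with none of 3 tested past the threshold. The part of other cells in the values of Tnfrsf11a and Tnfrsf8 was not tested.

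Genes with the pattern nearest to the members were found by the distance between pairs of log2 ratios, one for the cytokines and one for age, over the 3 libraries. Among 8960 genes of at least 10 CPM, those nearest to Tnfrsf11a were Drc1 (distance 0.12; 0.345, 40.6 and 5.71 CPM), Igfbp4 (0.58) and Cx3cr1 (0.81). For Tnfrsf8 they were Serpinb9b (1.32; 27.1, 1.08 and 17.4 CPM), Epas1 (1.34) and Adam8 (1.37), all much farther away. For Tnfsf11, among 11310 genes of at least 1 CPM, they were Dapl1 (0.03; 24.5, 34.5 and 46.9 CPM), Ly75 (0.04) and Ssx2ip (0.05).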

How the data were processed

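RNA of 3 samples, 1 per group, was sequenced from libraries of a standard Illumina protocol, per the labels' protocols. Bowtie, without a version, and GRCm38 (mm10) are named in the submitters' processing notes. The counting program, annotation and strand setting were not given in the sources used here. The deposited table holds estimated counts (values that need not be whole) and the authors' deposited TPM in 2 numbered columns per sample. A further 24 value columns (FPKM, normalised counts and means) were not used. Counts were rounded and summed per sample and scaled by TMM factors (1.02, 0.978 and 1.01; edgeR 4.0.16, R 4.3.3). Ratios came from Python 3.11.15, numpy 2.4.6, pandas 2.3.3 and scipy 1.17.1. Genes at 1 CPM or more in a library compared were tested, and the call rule was tested on simulated data. The simulation held little more than counting error, so it does not cover variation between mice or cultures. Alternatives were totals-only and DESeq2 1.42.0 scaling, pseudocounts of 0.5 and 5, no filter or 10 CPM, TPM, each column alone and 1.5-fold.

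The RefSeq table of GRCm38.p6 held 17071 of the gene IDs. Promoters matched 9 of the 10 members, and protein sequences were not analysed here. The members, 12 gene lists and tests were chosen with earlier results of these data known. Named genes were the 10 members, up to 4 called genes per list, defining markers, and the 3 nearest genes for Tnfrsf11a, Tnfrsf8 and Tnfsf11, leaving out predicted genes and pseudogenes. The ligand of each receptor, Tnfrsf1a, Tnfrsf14, Ltb, Traf1, Traf6, Nfkb1, Rela, Nfatc1, Ctsk, Oscar, Dcstamp, Ocstamp, Calcr, Mmp9, Ctss, Mpeg1, Kit, Ikzf2, Ikzf4, Trat1, Gata3, Zbtb7b, Pecam1 and Il2ra were named after their values were seen. So were Acp5, Clcn7, Itgax, Cd68, Itgam, Cd79b and Ctla4.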

Additional observations from a re-analysis of the deposited data

How the results depend on the processing

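Across 9 alternatives of scaling, pseudocount, filter, unit and column, each of the 20 log2 ratios of the 10 genes kept its side of the 2-fold threshold (180 of 180 values). The alternatives of the filter could not change these values, since all 10 genes reached 10 CPM in a library of each comparison. Tnfrsf11a ranged from 2.96 to 5.49 with the cytokines and from -2.73 to -2.04 with age, Tnfrsf8 from -5.39 to -3.7 and from 1.8 to 3.25, and Tnfrsf1b from 1.02 to 1.07 with the cytokines. With a 1.5-fold threshold 2 members were higher and 2 lower in aged TRM than young TRM, in place of 1 and 1. Counts over all genes moved more. With the cytokines, 484 genes were higher and 417 lower, which became 296 and 190 with a pseudocount of 5 and 1091 and 1054 at 1.5-fold, and 234 were lower with genes of at least 10 CPM. With age, 260 higher and 133 lower became 87 and 62 with a pseudocount of 5 and 731 and 445 at 1.5-fold, and 123 were higher with genes of at least 10 CPM. No paired analysis was possible because each group has 1 sample, and no sample could be left out. Depth limits Tnfrsf11a in young TCR, at 13 reads, and Tnfrsf8 in young TRM, at 48 reads.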
